A study of Mus musculus with 12 samples.

Results

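Smooth muscle contractile genes were followed through 12 RNA sequencing libraries of C57BL/6 mouse cells. The 10 genes were chosen by name, with earlier results of these data known. They encode the actins Acta2 and Actg2, the myosin chains Myh11 and Myl9, and the thin filament proteins Tagln, Cnn1, Smtn and Lmod1. The list also holds the intermediate filament protein Des, and Myocd, a transcriptional coactivator. All 10 were found among the 55385 gene identifiers of the count table. Of them, 9 passed the filter on low counts, and Myocd did not. The libraries form 3 groups of 4, all of strain C57BL/6 and all grown in culture: normal endometrium cells in primary culture (normal below, coded B6 in the titles), the endometrial cancer line mECC (coded DM) and the endometrial cancer line HPmECC (coded WT). According to the series' design text, part of the cancer cells overexpressed Myc; the labels do not name the line. Each cancer group is a single named line, and whether the 4 libraries of a group stem from separate cultures is not stated. P-values therefore speak of the variation among these libraries alone, and that may be technical.

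Smooth muscle cells shorten when Myl9, the regulatory light chain, is phosphorylated and lets Myh11, the smooth muscle myosin heavy chain, pull on filaments of Acta2 and Actg2. Tagln, Cnn1 and Smtn bind those filaments, Lmod1 starts new ones, and desmin (Des) links the contractile units to each other. Serum response factor (SRF) binds a short sequence called the CArG box in the regulatory regions of most of these genes, and Myocd is its partner in smooth muscle, while the related Mrtfa and Mrtfb serve in many other cells. In the uterus these genes mark the myometrium and the walls of vessels. Acta2, Tagln and Cnn1 are also known in activated stromal cells, and Des in stromal cells that decidualize.

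Promoter windows were searched for the CArG box because SRF control is what these genes are known to share. RefSeq windows (build GRCm38.p6) were found for 6 of the 10 genes, namely Acta2, Myl9, Cnn1, Smtn, Lmod1 and Des. The search covered the 250 bases before each start site. It took the CArG box as CC and GG with 6 bases between them, either all A or T (exact) or with a single C or G among them (near match). The exact form reads as a CArG box on both strands. Of 32851 promoter windows of the same length, 1.47% held an exact box and 8.59% held either form. The windows of Acta2 and Myl9 held at least 1 of the forms, and these letters were not found in the other 4. The stretches of both genes are shown because they hold the CArG boxes; capitals mark the boxes. The Acta2 stretch lies at chr19:34255378-34255477 on the minus strand and the Myl9 stretch at chr2:156775283-156775394 on the plus strand. Start sites here are those of RefSeq. In the GENCODE annotation the Acta2 gene reaches to 34255590, so the Acta2 stretch lies inside it.
Acta2: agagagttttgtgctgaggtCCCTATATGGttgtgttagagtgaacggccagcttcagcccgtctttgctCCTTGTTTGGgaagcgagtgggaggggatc
Myl9: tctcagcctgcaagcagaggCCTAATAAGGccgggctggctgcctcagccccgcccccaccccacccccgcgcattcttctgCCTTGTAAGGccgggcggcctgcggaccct
In Acta2 both boxes are near matches, and they begin 84 and 34 bases before the start site. In Myl9 the box that begins 161 bases before the start is exact and the one at 99 bases is a near match. A match is a description of the letters and was not tested as a binding site.

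The normal libraries held 16332060 to 24202564 counts each, the mECC libraries 21755275 to 25821106 and the HPmECC libraries 18402202 to 26873582. The 10 genes together took 0.255% to 0.301% of all counts in the normal libraries, 0.0164% to 0.0172% in mECC and 0.0326% to 0.0381% in HPmECC. The 3 ranges did not overlap. Levels are given below as CPM, counts divided by library size after TMM scaling. The order of the 10 genes by level is given as TPM, which is also divided by transcript length. Shares and ratios of counts and sums of CPM are not divided by length. In these bulk samples, fewer cells of a type and less RNA per cell cannot be told apart.

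Markers of other cells differed between the groups as well, and several of these lists fell as far as the contractile genes or further. Summed over 7 epithelial markers, normal libraries held 6789 to 7075 CPM, mECC 973 to 1009 and HPmECC 279 to 292. The sum of 5 endothelial markers was 109 to 122 CPM in normal, 3.26 to 4.15 in mECC and 5.12 to 7.71 in HPmECC. For 5 mesothelial markers it was 461 to 507, 53.6 to 59.3 and 47.6 to 53.1 CPM, and for 5 leukocyte markers 217 to 232, 5.69 to 7.96 and 12.9 to 16 CPM. Single genes made up most of some of these sums, namely Msln in normal (384 CPM), Kdr (3.40 CPM) and Cd68 (6.78 CPM) in mECC, and Bnc1 in HPmECC. Bnc1 stood at 36.8 CPM in normal, 16.4 CPM in mECC and 41.1 CPM in HPmECC, and edgeR called it 1.12-fold higher in HPmECC than in normal. In mECC against normal the median log2 fold changes were -2.86 (epithelial), -6.83 (endothelial), -6.57 (mesothelial) and -9.70 (leukocyte, or -7.27 with genes at 0 counts set to their bound), with 6 of 7, 4 of 4, 5 of 5 and 5 of 5 tested genes called lower. Between the lines all 7 epithelial markers were lower in HPmECC (median -4.57). At 0 counts were Wt1 and Tyrobp in mECC, and Cdh5, Tek, Ptprc, Tyrobp, Upk3b and Lrrn4 in HPmECC.

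The sums of the other marker lists rested on few genes too. For 10 endometrial stroma markers the sum was 1571 to 1972 CPM in normal, 2989 to 3448 in mECC and 2205 to 2475 in HPmECC, and Col1a1 made up most of it (1383, 3077 and 2054 CPM). In mECC against normal 7 of the 10 were lower and 3 higher (median -1.78); Hoxa11 was 82.6-fold and Col1a2 9.12-fold lower, and Thy1 was at 0 counts in mECC. For 4 myoepithelial markers the sum was 185 to 198, 24.5 to 30.6 and 7.84 to 8.69 CPM. Krt17 carried that fall (181 CPM in normal and 0.0486 in mECC), while Krt14 was 1.49-fold and Trp63 77.5-fold higher in mECC than in normal; Krt5 was at 0 counts in HPmECC. Pericytes, the contractile cells around small vessels, have 7 markers here, none at 0 counts in a group, with sums of 56.8 to 67.5, 353 to 384 and 521 to 581 CPM. Pdgfrb and Notch3 made up most of those sums in the lines. Cspg4 was 33.2-fold lower in mECC than in normal, and Rgs5 was 9.16-fold and Mcam 1.72-fold lower in HPmECC than in mECC. For 11 striated muscle markers the sums were 6.39 to 7.11, 35.8 to 37.5 and 109 to 135 CPM. Tnnt2 made up most of the sum in normal (5.44 CPM) and nearly all of it in the lines. Myh7, Ttn and Actn2 had 43, 41 and 10 counts in normal, 4, 11 and 4 in mECC and 1, 8 and 2 in HPmECC, and Myf5 and Myl2 were at 0 in every library. The part of any of these cells in the results below was not tested.

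**Figure D1:**
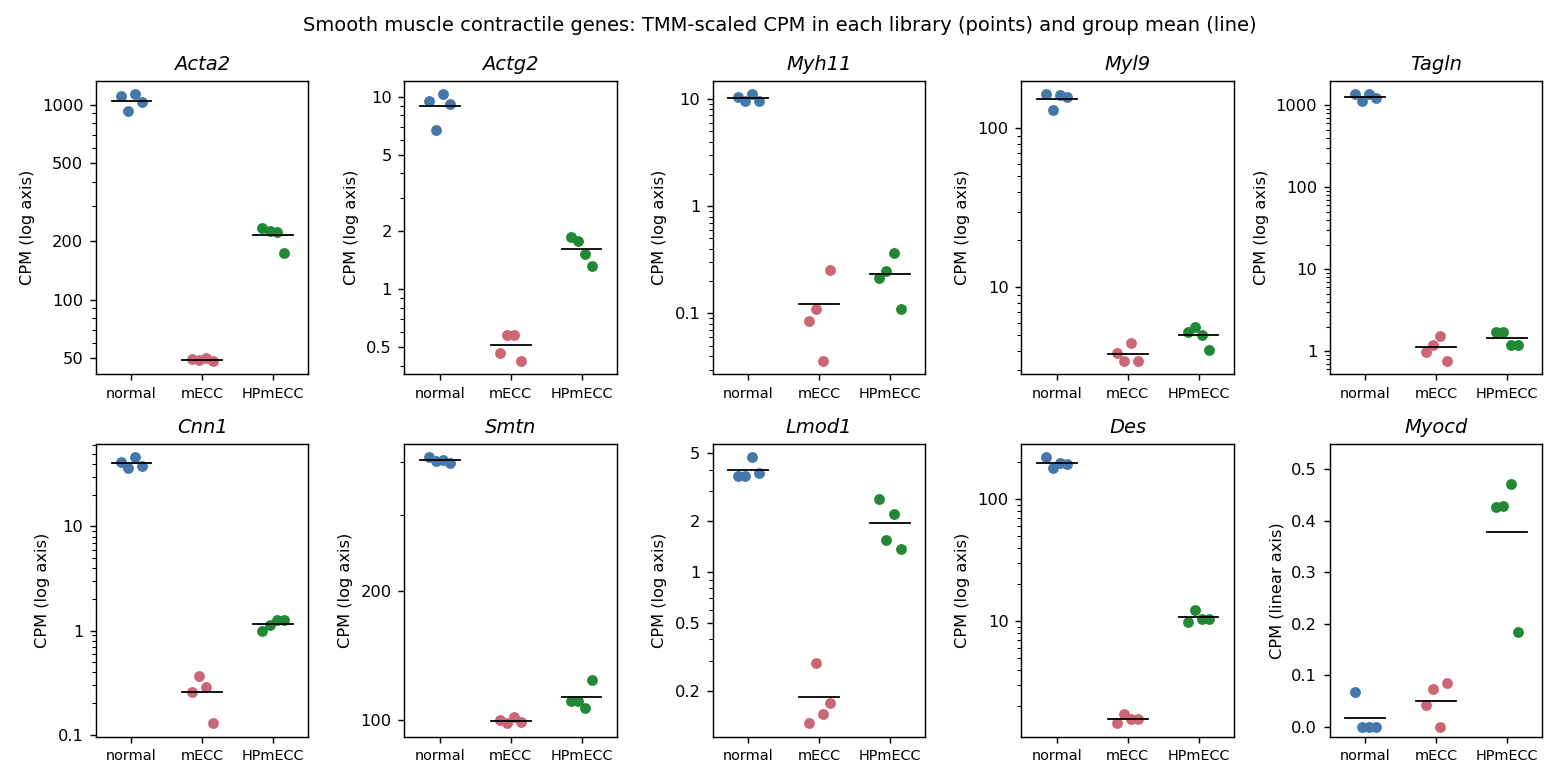
CPM of each of the 10 genes in each library (points; log axes, except a linear axis for Myocd), with the group mean as a line. Acta2, Cnn1, Des, Lmod1 and Actg2 step down from normal to HPmECC to mECC, Tagln lies near 1 CPM in both lines, and Myocd is highest in HPmECC, at up to 0.472 CPM.

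The first comparison set mECC against the normal cells. All 9 tested contractile genes fell, each at least 2-fold and with no overlap between the groups. Their median log2 fold change was -5.33, against -0.02 over the 15283 genes tested. Of all genes tested, 44.2% were called lower (42.1% higher), 22.8% were called lower by at least 2-fold, and 42.3% were lower without overlap. The fall ranged from 4.04-fold for Smtn to 1110-fold for Tagln. Library totals in place of TMM factors put the median over all genes at 0.22, and the share of called genes that were higher went from 48.8% to 59.1%; all 9 contractile genes were called lower on that scale too.

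Tagln, which encodes the actin-binding protein transgelin (SM22), was the most abundant of the 10 in normal cells and nearly absent from the lines. Its gene (ENSMUSG00000032085) occupies chromosome 9 from 45929619 to 45936058 of GRCm38, on the minus strand; positions below are on the same build. The normal libraries held 1355, 1128, 1360 and 1227 CPM. The mECC libraries held 0.983, 1.20, 1.52 and 0.766 CPM, which came from 116 counts in all. The HPmECC libraries held 1.71, 1.72, 1.21 and 1.18 CPM. Every normal library was far above every library of the lines, while the ranges of the lines overlapped. The log2 fold change was -10.12 (SE 0.10, adjusted p from edgeR = 2.36e-23) for mECC and -9.75 (SE 0.10, adjusted p from edgeR = 1.57e-23) for HPmECC, both against normal. Between the lines it was 0.36 with a 95% interval from -0.15 to 0.87 (edgeR adjusted p = 0.194).

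Acta2, the alpha actin of vascular smooth muscle, fell much less than Tagln and differed between the lines. On chromosome 19, ENSMUSG00000035783 covers positions 34241090 to 34255590. Its values were 1110, 922, 1128 and 1032 CPM in normal, 49.5, 48.7, 50.1 and 48.5 CPM in mECC, and 234, 224, 222 and 173 CPM in HPmECC. The 3 groups did not overlap, and HPmECC replicate 4 was the lowest of its group. Against normal, Acta2 fell 21.3-fold in mECC (log2 fold change -4.41, SE 0.08, adjusted p from edgeR = 1.62e-19) and 4.92-fold in HPmECC (-2.30, SE 0.07, adjusted p from edgeR = 5.34e-16). Between the lines HPmECC was 4.33-fold higher (2.11, SE 0.08, adjusted p from edgeR = 4.55e-14), and without HPmECC replicate 4 the log2 fold change was 2.21.

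The ratio of Acta2 to Tagln differed between the 3 groups. Per transcript length, the TPM of Acta2 was 0.643 to 0.674 times that of Tagln in the normal libraries, 29.6 to 49.9 times in mECC and 108 to 157 times in HPmECC. On the log2 scale the count ratio of Acta2 to Tagln was 1.71 higher in HPmECC than in mECC and 5.75 higher in mECC than in normal. Each difference had an exact two-sided permutation p of 0.0286, the smallest that 4 against 4 libraries allow (adjusted p = 0.0312 over 12 ratio comparisons). In the make-up of the 10 genes' counts, Tagln took 39.9% to 40.9% in normal, 0.496% to 0.947% in mECC and 0.343% to 0.477% in HPmECC.

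**Figure D2:**
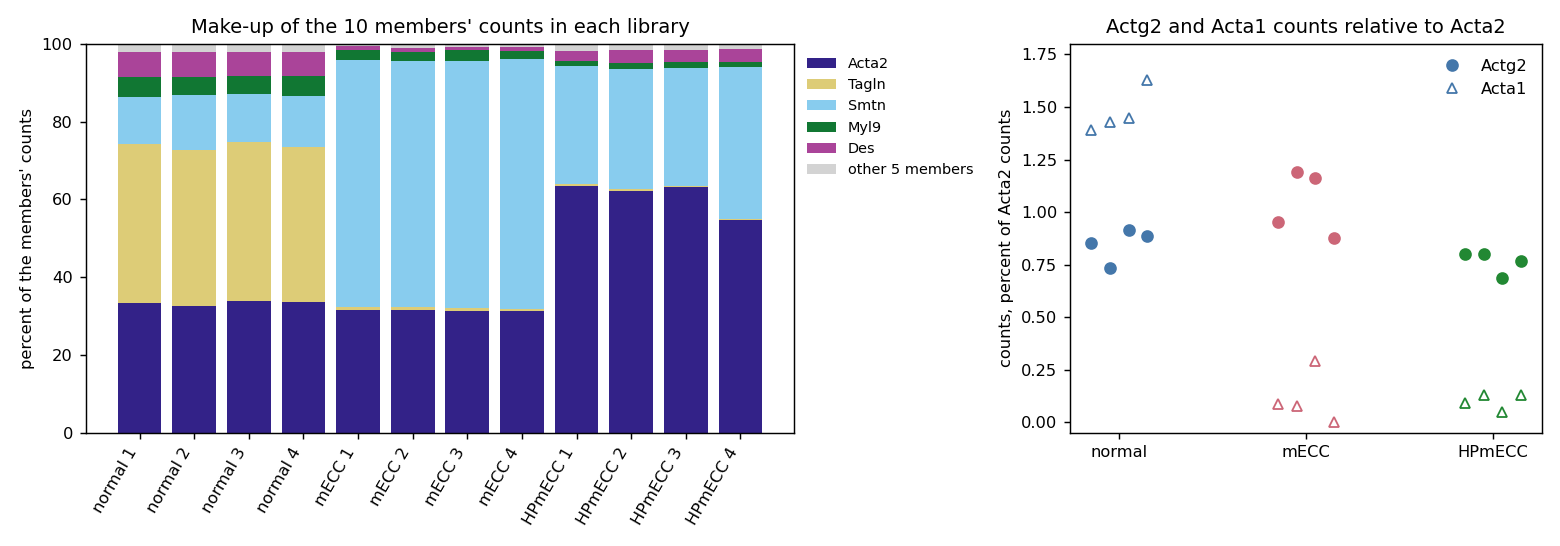
Left, share of each gene in the summed counts of the 10 genes, by library. Tagln holds 39.9% to 40.9% in the normal libraries and under 1% in both lines, where Smtn and Acta2 hold most. Right, counts of Actg2 (filled circles) and of Acta1 (open triangles) as a percentage of Acta2 counts in the same library; Actg2 stays between 0.686% and 1.19% in all 12 libraries.

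Actg2, the gamma actin of visceral smooth muscle, was far rarer than Acta2 in every group, at 11.4 against 992 TPM in normal, 0.905 against 56.8 TPM in mECC and 2.64 against 232 TPM in HPmECC. Its identifier is ENSMUSG00000059430, at 83512905 to 83536265 of chromosome 6. The normal libraries held 9.48, 6.75, 10.3 and 9.14 CPM, mECC 0.470, 0.581, 0.580 and 0.426 CPM, and HPmECC 1.88, 1.79, 1.52 and 1.33 CPM. The groups kept apart in the same order as for Acta2. Against normal the fall was 17.0-fold in mECC (edgeR adjusted p = 1.27e-13) and 5.45-fold in HPmECC (edgeR adjusted p = 2.29e-11), and HPmECC stood 3.12-fold above mECC (edgeR adjusted p = 3.77e-06).

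Counts of Actg2 amounted to 0.732% to 0.913% of those of Acta2 in normal libraries, 0.878% to 1.19% in mECC and 0.686% to 0.802% in HPmECC, while both genes differed several-fold between the groups. The log2 ratio of their counts was 0.35 higher in mECC than in normal and changed by -0.48 from mECC to HPmECC (exact two-sided permutation p = 0.0286 and adjusted p = 0.0312 for each), and HPmECC and normal differed by -0.13 (exact p = 0.171). The coding sequences of the actins are close relatives. In the GENCODE transcripts, Acta2 and Actg2 share 952 of 1128 aligned coding bases (84.4%), and the longest stretch identical in both transcripts is 29 bases. Their coding starts are shown as an example of how closely the sequences match. Capitals mark bases that differ from the partner or have none.
Acta2: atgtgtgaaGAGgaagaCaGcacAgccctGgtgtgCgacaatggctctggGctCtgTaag
Actg2: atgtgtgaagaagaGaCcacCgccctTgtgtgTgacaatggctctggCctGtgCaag
Acta1, the skeletal muscle actin, shares 85.4% of its coding bases with Acta2, and its counts relative to Acta2 differed between normal cells and the lines. It stood at 1.39% to 1.63% of Acta2 counts in normal libraries, 0% to 0.289% in mECC and 0.0473% to 0.128% in HPmECC. RSEM divides reads that fit several genes, so the level of Actg2 may be uncertain. The read length is not stated, and whether any Actg2 counts stem from Acta2 reads was not tested.

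Myosin chains fell in both lines, and the heavy chain was close to the limit of detection there. Myh11 (ENSMUSG00000018830, chromosome 16 at 14194535 to 14291372) held 10.5, 9.61, 11 and 9.64 CPM in normal. The mECC libraries held 2, 3, 1 and 6 counts and the HPmECC libraries 5, 7, 7 and 3 counts. Every normal library held at least 155 counts, and the lines overlapped each other. The fall was 82.5-fold in mECC (edgeR adjusted p = 1.11e-14) and 43.9-fold in HPmECC (edgeR adjusted p = 2.66e-14). Between the lines the log2 fold change was 0.91 with a 95% interval from -0.12 to 1.93 (edgeR adjusted p = 0.108). It passed the threshold without mECC replicate 4 (1.5, edgeR adjusted p = 0.0179) and without HPmECC replicate 4 (1.17, edgeR adjusted p = 0.0409).

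Myl9 (ENSMUSG00000067818, chromosome 2 at 156775420 to 156781658), the light chain whose phosphorylation starts contraction, was well measured in all groups. It stood at 164, 131, 162 and 158 CPM in normal, 3.89, 3.45, 4.46 and 3.45 CPM in mECC, and 5.24, 5.65, 5.04 and 4.02 CPM in HPmECC. Normal libraries lay far above both lines, and HPmECC replicate 4 lay within the mECC range. Against normal it fell 40.1-fold in mECC (edgeR adjusted p = 4.74e-20) and 30.8-fold in HPmECC (edgeR adjusted p = 7.89e-20). The level in HPmECC was 1.3 times that in mECC (log2 difference 0.38, SE 0.15, adjusted p from edgeR = 0.0288). That call was lost with library totals (0.34, edgeR adjusted p = 0.0519) and with limma on log2(TPM + 1) (0.20, limma adjusted p = 0.149). It was also lost on leaving out mECC replicate 2 or 4 or HPmECC replicate 1 or 2, with log2 fold changes from 0.30 to 0.36 and edgeR adjusted p-values from 0.0633 to 0.107.

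Cnn1, or calponin, which slows the myosin motor on actin, fell by more than Acta2 and Actg2. The locus, ENSMUSG00000001349, spans 22099216 to 22109630 on chromosome 9. The normal libraries held 41.4, 36.4, 46.4 and 38.3 CPM, mECC 0.257, 0.363, 0.290 and 0.128 CPM, and HPmECC 0.980, 1.14, 1.26 and 1.25 CPM. No groups overlapped. In mECC the fall was 150-fold (log2 fold change -7.23, SE 0.15, adjusted p from edgeR = 4.10e-19). HPmECC lay 34.9-fold below normal (edgeR adjusted p = 1.99e-18) and 4.31-fold above mECC (2.11, SE 0.28, adjusted p from edgeR = 2.18e-06).

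Smtn, or smoothelin, an actin-associated protein with forms in vascular and visceral muscle, kept the largest share of its normal level in mECC. On chromosome 11, ENSMUSG00000020439 covers positions 3517523 to 3540612. Normal libraries held 410, 402, 404 and 398 CPM, mECC 99.9, 98.3, 102 and 99.0 CPM, and HPmECC 111, 111, 107 and 124 CPM. The lines were separate from normal and from each other, and HPmECC replicate 4, the lowest of its group for Acta2, was the highest for Smtn. The mECC mean was 24.7% of the normal mean and the HPmECC mean 28.1%. The log2 fold change was -2.02 (SE 0.04, adjusted p from edgeR = 8.31e-20) for mECC against normal and 0.19 (SE 0.04, adjusted p from edgeR = 2.02e-04) for HPmECC against mECC. On log2(TPM + 1) the difference between the lines was 0.08 (limma adjusted p = 0.17), so the call was lost when limma on TPM replaced edgeR on counts. With library totals in edgeR it was kept (0.14, edgeR adjusted p = 0.00209).

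Lmod1, or leiomodin 1, which nucleates actin filaments in smooth muscle, came closest to its normal level in HPmECC. Its identifier is ENSMUSG00000048096, at 135324807 to 135368065 of chromosome 1. The counts were 54, 71, 86 and 83 in normal, 3, 8, 4 and 4 in mECC, and 63, 43, 42 and 37 in HPmECC. As CPM this was 3.66 to 4.74, 0.128 to 0.291 and 1.36 to 2.69, with no overlap between groups. HPmECC stood at 49.0% of the normal mean and mECC at 4.62%. Between the lines the difference was 10.1-fold (log2 fold change 3.33, SE 0.32, adjusted p from edgeR = 2.65e-08). Against normal, Lmod1 fell 2.07-fold in HPmECC (-1.05, SE 0.20, adjusted p from edgeR = 1.03e-04) and 20.8-fold in mECC (-4.38, SE 0.29, adjusted p from edgeR = 5.50e-11).

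Des, which encodes the muscle intermediate filament protein desmin, fell in both lines and was higher in HPmECC than in mECC. The locus, ENSMUSG00000026208, spans 75360329 to 75368579 on chromosome 1. Normal libraries held 221, 180, 197 and 195 CPM, mECC 1.45, 1.74, 1.59 and 1.57 CPM, and HPmECC 9.89, 12.3, 10.5 and 10.4 CPM. The groups were fully separate. The fall against normal was 123-fold in mECC (log2 fold change -6.95, SE 0.09, adjusted p from edgeR = 6.47e-22) and 18.3-fold in HPmECC (-4.19, SE 0.07, adjusted p from edgeR = 1.18e-20). HPmECC exceeded mECC 6.76-fold (2.76, SE 0.13, adjusted p from edgeR = 1.27e-12). Vim, the intermediate filament gene of mesenchymal cells, went the other way against normal, with 633 CPM there, 2071 CPM in mECC and 2386 CPM in HPmECC.

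Myocd, the smooth muscle coactivator of SRF, was barely detected, and most of its counts came from HPmECC. On chromosome 11, ENSMUSG00000020542 covers positions 65176561 to 65269989. The HPmECC libraries held 10, 12, 9 and 5 counts, mECC 1, 2, 0 and 2, and normal 1, 0, 0 and 0. Each HPmECC library exceeded every other library, although normal cells had the highest levels of the other 9 genes. With 36 counts against 5, HPmECC was 7.52-fold above mECC (exact 95% counting interval 2.94 to 24.6), and with 36 against 1 it was 27.3-fold above normal (4.59 to 1107). An exact two-sided permutation test gave p = 0.0286 for each of these comparisons, the smallest that 4 against 4 libraries allow, and p = 0.257 for mECC against normal; adjusted over the 3 comparisons these are 0.0429, 0.0429 and 0.257. Counting intervals cover counting error only, because amplified reads without molecular identifiers are not independent molecules. Myocd was below the filter, and with no filter edgeR gave log2 fold changes of 2.79 (SE 0.70, adjusted p = 2.66e-04) and 4.33 (SE 0.93, adjusted p = 1.05e-05).

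A direct comparison of HPmECC with mECC covered the same genes. Of the 9 tested genes, 7 rose, 0 fell and 2 (Tagln and Myh11) did not pass the threshold in edgeR; of all genes tested, 33.8% were called higher and 34.5% lower. All 9 log2 fold changes were above 0, and no alternative called a contractile gene lower. Lmod1, Des, Acta2, Cnn1 and Actg2, 5 of the 9, rose by at least 2-fold, as did 6.73% of all genes. The lines did not overlap for 6 of the 9, as for 31.2% of all genes in that direction. The median log2 fold change of the 9 was 1.64, against 0.00 over all genes. With limma on log2(TPM + 1), 5 of the 9 were called higher. Without HPmECC replicate 4 the 7 genes stayed called, Myh11 was called as well, and the 9 log2 fold changes lay between 0.15 and 3.48.

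HPmECC was also set against the normal cells, the same 4 libraries that served for mECC. All 9 tested genes fell, by 2.07-fold (Lmod1) to 862-fold (Tagln), again at least 2-fold and with no overlap, and their median log2 fold change was -4.19. Among all tested genes 43.3% were called lower, 23.0% lower by at least 2-fold, and 41.2% lower without overlap. As a share of the normal mean, HPmECC held 49.0% for Lmod1, 28.1% for Smtn, 20.3% for Acta2 and 18.3% for Actg2. The shares were 5.44% for Des, 3.25% for Myl9, 2.85% for Cnn1, 2.31% for Myh11 and 0.115% for Tagln. In mECC they were lower for each of the 9, at 24.7% for Smtn, 5.77% for Actg2 and at most 4.69% for the other 7.

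**Figure D3:**
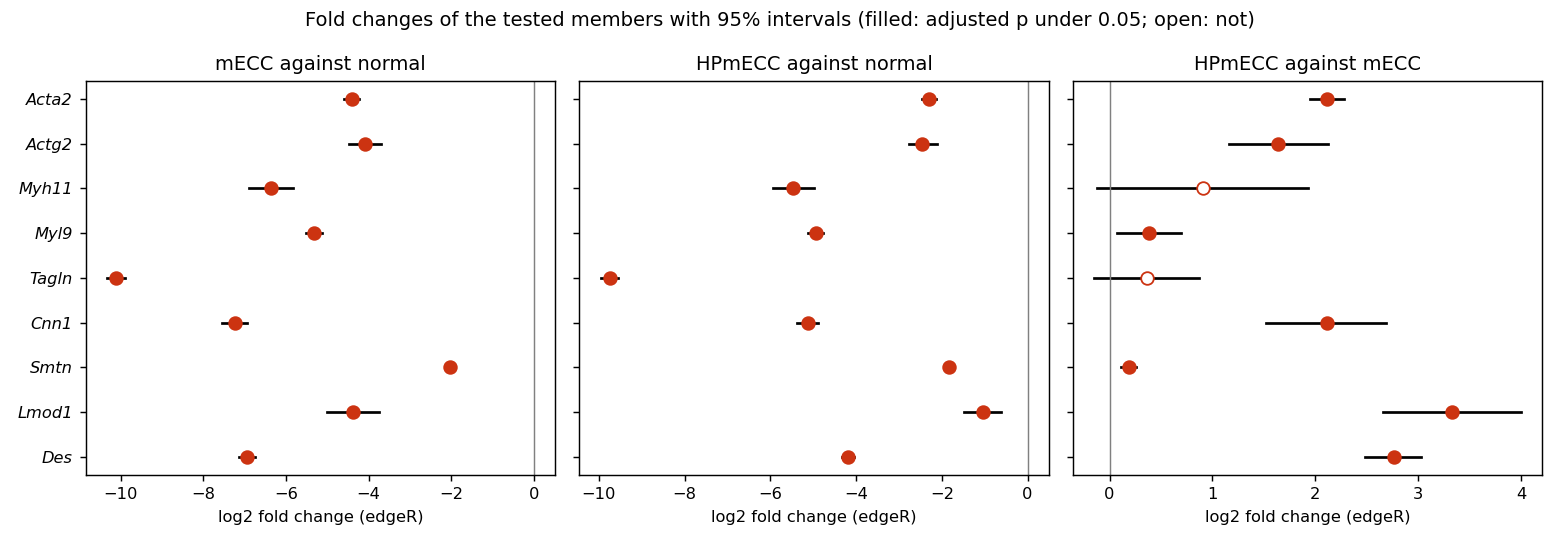
log2 fold changes (points) of the 9 tested genes with 95% intervals (lines) in the 3 comparisons; filled points passed an edgeR adjusted p of 0.05. All 9 lie below 0 against normal in both lines, and 7 lie above 0 and are filled for HPmECC against mECC.

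Per transcript length, the order of the 10 genes was not the same in the 3 groups. In normal cells the mean TPM ran from Tagln (1500) through Acta2 (992), Myl9 (255), Smtn (196), Des (101), Cnn1 (47.8), Actg2 (11.4), Myh11 (2.30) and Lmod1 (1.52) to Myocd (0.0075), and no neighbours in that order overlapped. In mECC, Smtn (59.3 TPM) and Acta2 (56.8 TPM) came highest with overlapping ranges. They were followed by Myl9 at 7.64 TPM, while the ranges of Des (0.88 to 1.82 TPM) and Tagln (1.15 to 1.89 TPM) overlapped and Actg2 (0.63 to 1.26 TPM) reached into both and into the range of Cnn1 (0.29 to 0.83 TPM). Lmod1 (0.06 to 0.13 TPM) had the next lower mean, and Myh11 (0.01 to 0.07 TPM) and Myocd (0 to 0.06 TPM) reached its range. In HPmECC, Acta2 led at 232 TPM, ahead of Smtn at 62.7 TPM. Des (8.60 to 11.1 TPM) and Myl9 (6.94 to 9.88 TPM) overlapped, as did Actg2 (2.16 to 3.52 TPM) with Tagln (1.36 to 2.20 TPM) and Tagln with Cnn1 (1.28 to 1.87 TPM). Lmod1 stood at 0.59 to 1.16 TPM, above Myocd (0.06 to 0.26 TPM) and Myh11 (0.03 to 0.1 TPM), which overlapped.

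Within groups the genes varied to different degrees. In normal cells, replicate 2 was the lowest of the 4 libraries for Acta2, Actg2, Tagln, Myl9, Cnn1 and Des, and it was the lowest for Myh11 too, at 9.61 CPM. The coefficient of variation in normal cells was 1.17% for Smtn, against 8.93% for Acta2, 8.78% for Tagln and 17.1% for Actg2. In HPmECC, replicate 4 was lowest for Acta2, Actg2, Myh11, Myl9, Tagln, Lmod1 and Myocd, but not for Cnn1, Des or Smtn.

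Known regulators of the contractile genes went in both directions. Srf itself stood at 111 CPM in normal, 54.0 CPM in mECC and 64.0 CPM in HPmECC, with log2 fold changes of -1.03, -0.78 and 0.25 in mECC against normal, HPmECC against normal and HPmECC against mECC, all called by edgeR. Mrtfa, which carries actin signals to SRF, held 76.7, 78.2 and 88.9 CPM in the same order of groups and was not called for mECC against normal. Of the 10 SRF and myocardin regulators, 3 were higher and 6 lower in mECC against normal, and 5 were higher and 2 lower in HPmECC than in mECC (medians -0.76 and 0.15). Over all genes tested, 42.1% were higher and 44.2% lower in the former comparison and 33.8% higher and 34.5% lower in the latter. Klf5, a zinc finger factor of growing smooth muscle and epithelium, fell 12.1-fold, its relative Klf4 2.28-fold and Tead1 4.27-fold in mECC. Prdm6, which encodes a repressor active in smooth muscle precursors, rose instead: it had 2 counts in normal, 112 in mECC and 1038 in HPmECC. That is a ratio of 40.6 for mECC over normal (counting interval 11 to 339), and HPmECC stood 9.71-fold above mECC (edgeR adjusted p = 1.10e-11). Foxo4, known to repress Myocd activity, rose 1.22-fold from mECC to HPmECC. Gata6, known for keeping smooth muscle differentiated, stood 1.36-fold lower in HPmECC than in mECC.

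Next came the genes that switch contraction on and off. Of 19 tested, 14 were lower and 3 higher in mECC against normal (median log2 fold change -0.59), and 14 were higher and 2 lower in HPmECC than in mECC (median 0.25), where all genes gave 44.2% lower and 42.1% higher, then 33.8% higher and 34.5% lower. For Jph2, which ties the calcium store to the cell membrane, 3946 counts came from normal cells, 3 from mECC and 163 from HPmECC, a ratio of 1814 for normal over mECC (counting interval 620 to 8801). Gucy1a1, a subunit of the nitric oxide receptor that relaxes smooth muscle, had 498 counts in normal and 0 in mECC, at least 229-fold lower with mECC set at a floor of 3 counts over the group (exact 95% lower limit of the count ratio 186). Mylk, the kinase that phosphorylates Myl9, was higher in both lines than in normal cells by CPM. It stood at 8.05 CPM in normal, 12.5 CPM in mECC and 30.8 CPM in HPmECC, 2.46-fold higher in HPmECC than in mECC. Per transcript length normal and mECC were close, with a mean TPM of 2.89 in normal, 3.05 in mECC and 11.2 in HPmECC. The calcium channel gene Cacna1c rose likewise, from 7.65 CPM in normal to 35.2 CPM in mECC and 41.1 CPM in HPmECC. From mECC to HPmECC, Pde5a rose 1.44-fold and Prkg1 fell 1.28-fold, and both act on the cyclic GMP signal that relaxes smooth muscle.

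Among 24 tested genes of the muscle cytoskeleton and its adhesions, 17 were lower and 7 higher in mECC against normal, with a median log2 fold change of -1.08. In HPmECC against mECC, 13 were higher and 5 lower (median 0.25). The shares over all genes were 44.2% lower and 42.1% higher in mECC against normal, and 33.8% higher and 34.5% lower between the lines. Fhl1, a LIM domain protein of muscle, stood at 120 CPM in normal, 4.64 CPM in mECC and 18.7 CPM in HPmECC, 4.04-fold higher in HPmECC than in mECC. Csrp1, another LIM protein, rose 1.97-fold between the lines. Synm, an intermediate filament partner of desmin, rose 2.20-fold from mECC to HPmECC, where it stood 16.4-fold above normal. Pgm5, which encodes a protein of muscle adhesion sites, was 37.7-fold higher in mECC than in normal cells, and Itga8, an integrin chain of smooth muscle and stroma, 18.2-fold higher. The mean TPM of Itga8 differed less, at 0.425 in normal and 2.9 in mECC. The edgeR adjusted p-values of these 5 genes were at most 4.70e-08.

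Receptors and junctions of uterine contraction formed a short list. Of 8 tested, 4 were higher and 4 lower in mECC against normal (median log2 fold change 0.27), and 4 were higher and 3 lower in HPmECC than in mECC (median 0.66). These counts lay near the shares over all genes, 42.1% higher and 44.2% lower in mECC against normal and 33.8% higher and 34.5% lower between the lines. Gja1, the gap junction gene connexin 43, rose from 166 CPM in normal to 332 CPM in mECC and 497 CPM in HPmECC. Ednra, an endothelin receptor, was 14.7-fold higher in mECC than in normal and 2.80-fold lower in HPmECC than in mECC. Ptger3, a prostaglandin E receptor, had 533 counts in normal and 0 in mECC, at least 245-fold lower with the same floor (exact 95% lower limit of the count ratio 199).

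Other actins, myosins and thin filament proteins, some widely expressed and some of other tissues, were counted the same way. Of 16 tested, 14 were lower and 2 higher in mECC against normal, with a median log2 fold change of -1.01, and 7 were higher and 5 lower in HPmECC than in mECC (median 0.05). All genes gave 44.2% lower and 42.1% higher, then 33.8% higher and 34.5% lower, and the counts between the lines lay near those shares. Tagln2, the relative of Tagln in many cell types, held 1242 CPM in normal, 356 CPM in mECC and 484 CPM in HPmECC, 1.36-fold higher in HPmECC than in mECC. Cnn3, a calponin of nonmuscle cells, held 661, 710 and 754 CPM. The cytoplasmic actin Actb held 5044, 3931 and 4566 CPM, and Myh9, a nonmuscle myosin, 1983, 870 and 1261 CPM. Myh14, a nonmuscle myosin of epithelia, fell in a different order, from 353 CPM in normal to 60.6 CPM in mECC and 5.98 CPM in HPmECC. Smtnl2, a smoothelin relative, fell 6.50-fold in mECC against normal. Acta1 had 15.4 CPM in normal and 0.056 CPM in mECC, 241-fold lower.

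Immediate targets of SRF numbered 3 higher and 6 lower of 10 in mECC against normal (median -0.39), and 5 higher and 3 lower in HPmECC against mECC (median 0.17). The shares over the whole table were 42.1% and 44.2% for mECC against normal, and 33.8% and 34.5% between the lines. Fos fell 20.9-fold, Ccn2 7.97-fold and Ccn1 4.98-fold in mECC against normal, while Egr1 rose from 28.5 CPM in normal to 46.4 CPM in mECC and 62.3 CPM in HPmECC. From mECC to HPmECC, Egr2 rose 2.25-fold, Ier2 1.65-fold and Junb 1.46-fold. Over all genes tested, the median log2 fold change was -0.02 for mECC against normal and 0.00 for HPmECC against mECC. In the pathway lists with genes at 0 counts in a group, the medians were the same with those genes set to their bounds.

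**Figure D4:**
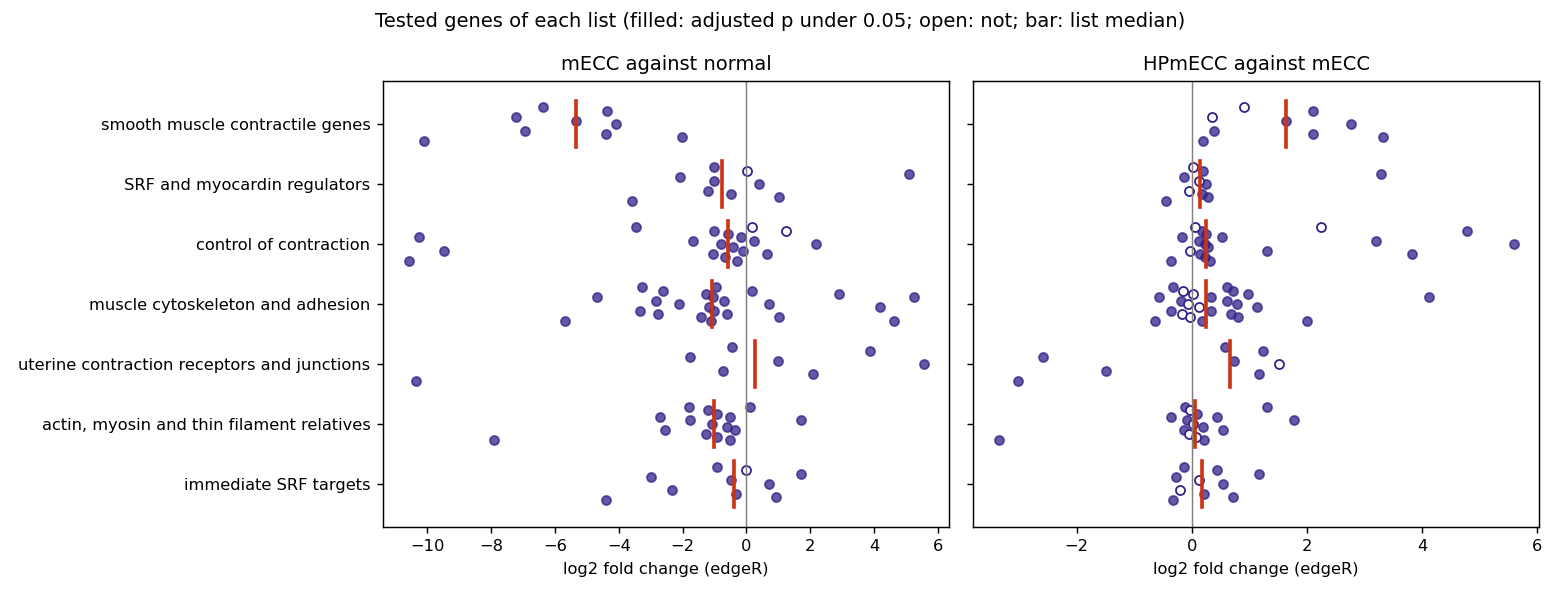
log2 fold changes of the tested genes of each list (points; filled where the edgeR adjusted p was under 0.05) with the list median (bar), for mECC against normal and HPmECC against mECC. The contractile genes have medians of -5.33 and 1.64, and the 6 pathway lists plotted with them have medians between -1.08 and 0.27 and between 0.05 and 0.66.

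The gene nearest to each contractile gene was found by the root-mean-square difference of mean-centred log2(CPM + 0.5) over the 12 libraries. The libraries share their 3 groups and their depth. The offset of 0.5 flattens differences between low levels, so near genes need not share a fold change. Fhl1 was nearest to Acta2 (difference 0.16, Pearson's r = 0.997), followed by the transporter gene Slc6a15 (0.17). From normal to mECC, Acta2 went from 1048 to 49.2 CPM, Fhl1 from 120 to 4.64 CPM and Slc6a15 from 11.7 to 0.0182 CPM. Fhl1 thus fell 25.8-fold, near the 21.3-fold of Acta2, and Slc6a15 fell much further. Lvrn was among the 2 nearest to Actg2 (0.17). Myh11 was nearest to Ier3 (0.15) and Iqgap2 (0.17), and Myl9 to the chemokine gene Ccl20 (0.15) and Acta1 (0.19). From normal to mECC, Myh11 went from 10.2 to 0.122 CPM, Iqgap2 from 11 to 0.159 CPM and Ier3 from 1059 to 67.8 CPM. Between the same groups, Myl9 went from 154 to 3.81 CPM, Ccl20 from 17.2 to 0.032 CPM and Acta1 from 15.4 to 0.056 CPM. Smtn had the closest neighbours, Aen and Mafk (both 0.07), and Tagln the most distant, Guca2b (0.29) and Acod1 (0.31). Cnn1 was nearest to Fam110c (0.22) and Mt1 (0.23), Lmod1 to the growth factor gene Bmp4 (0.17) and Crabp2 (0.22), and Des to S100g (0.20) and Mmp9 (0.29). Of these nearest genes, only Fhl1 and Acta1 were picked for a listing of their CArG boxes. Both held an exact box, and that of Acta1 begins 73 bases before the start. Boxes of the other nearest genes were not listed, so how many of them hold a box is not known here. Whether any nearest gene shares a regulator with its contractile gene was not tested. The promoter of Fhl1 is shown because it held an exact CArG box, which begins 102 bases before the start. The stretch lies at chrX:56779561-56779610 on the plus strand.
Fhl1: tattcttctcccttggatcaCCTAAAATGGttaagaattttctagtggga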

How the data were processed

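Cultured cells gave 12 libraries; per the labels' protocols, the TruSeq kit for mRNA was used. According to the submitters' processing notes the tools were Trim Galore, STAR 2.6.1a and RSEM 1.3.1, with build GRCm38; annotation release and strand setting: not given in the sources used here. Deposited expected counts are estimated counts per gene and whole in the file. Deposited TPM values were scaled by the authors to transcript length and a fixed sum. FPKM values were not used here. Symbols matched 55144 of 55385 identifiers. Positions came from GENCODE mouse release M21 and promoter windows from RefSeq (GRCm38.p6).

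The counts were fitted by edgeR 4.0.16 in R 4.3.3, with the quasi-likelihood test over all 12 libraries, 1 coefficient per group, TMM factors, filterByExpr at a minimum of 10 counts, and Benjamini-Hochberg adjustment over 15283 genes at 0.05. The common biological coefficient of variation was 4.27%. Standard errors came from the F statistic. The permutation test of Myocd (scipy 1.17.1) and the likeness of genes used log2(CPM + 0.5). Permutation tests of gene ratios used the log2 ratio of counts, with 0.5 added to each count. The fit was also run on simulated counts, with 200 genes changed and the common coefficient of variation given to every gene. In these data far more genes were called and genes vary to different degrees, and the outcome of that run is not reported here. The alternatives tried were DESeq2's size factors, library totals, other filters, DESeq2 1.42.0, limma 3.58.1 on log2(TPM + 1) and log2(TPM + 0.1), 2-group fits, a replicate block, and each library left out.

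The contractile genes and the other lists were chosen with earlier results of these data known, so their counts are descriptions. Named were all 10 contractile genes, up to 3 called genes per pathway list and comparison by size of change, given 5 CPM or more in the higher group, and the 2 nearest genes per contractile gene with 10 CPM or more in the highest group, of which 1 is not reported here. Srf, Mrtfa, Egr1, Cnn3, Actb and the single genes of the marker lists were named after their values were seen.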

Additional observations from a re-analysis of the deposited data

Results flagged for a closer look

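In each group of 4 libraries, a library was singled out when its gap to the nearest other, as a share of the group's range, exceeded Dixon's critical value. Chance singles out about 1 in 20 such groups. Of 30 groups (10 genes in 3 groups) 3 had such a library. Lmod1 stood at 4.74 CPM in normal replicate 3, against 3.66 to 3.81 CPM in the other 3. Myocd stood at 0.184 CPM in HPmECC replicate 4, against 0.426 to 0.472 CPM in the other 3. Myocd was also at 0.0677 CPM, a single count, in normal replicate 1 and at 0 in the other 3 normal libraries. A lone count beside libraries at 0 always makes the gap equal to the range, so this flag was fixed in advance.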

How the results depend on the processing

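The number of contractile genes called lower fell from 9 to 6 for both mECC and HPmECC against normal with a minimum of 10 CPM in 4 libraries, because 3 of them no longer entered the test. In HPmECC against normal, 1 contractile gene (Myocd) was called higher with no filter on low counts and 1 with DESeq2, against 0 in the reported test. All other counts of contractile genes and of all genes called were within 1.5 times the reported count, and no fold change of a contractile gene turned its direction under any alternative run. With each library left out in turn, contractile genes called higher in HPmECC against mECC numbered 6 to 8, and those called lower against normal numbered 9 in every case. Replicate numbers are shared by the groups, but same-numbered libraries did not deviate together (r from -0.14 to 0.10 over 12 pairs, and 0 libraries correlated best with their own number in both other groups). With the replicate number as a block, 7 contractile genes were called higher between the lines and 9 lower against normal in each line, and the genes called higher between the lines went from 5165 to 5111. Leaving out a library of Myocd leaves 4 against 3, where an exact two-sided p cannot go below 0.0571. Depth limits Myh11, Lmod1 and Cnn1 in mECC, which rest on 12, 19 and 27 counts.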

Other observations

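Of 11 striated muscle markers only Tnnt2 and Tnnt3 passed the filter, and they were named after their values were seen. Tnnt2, the cardiac troponin T gene, stood at 5.44 CPM in normal cells, 35.1 CPM in mECC and 118 CPM in HPmECC, with log2 fold changes of 2.69, 4.44 and 1.75 for mECC against normal, HPmECC against normal and HPmECC against mECC, all called by edgeR. Tnnt3 had 0 counts in normal cells, 123 in mECC (1.22 CPM) and 99 in HPmECC (0.995 CPM). With normal set at a floor of 3 counts over the group it was at least 29.7-fold higher in mECC and at least 25.0-fold higher in HPmECC (exact 95% lower limits of the count ratios 23.8 and 20). The myogenic factor Myod1 had 0 counts in normal, 1 in mECC and 0 in HPmECC. Among pericyte markers, Pdgfrb rose from 16.9 CPM in normal to 237 CPM in mECC and 374 CPM in HPmECC and Notch3 from 8.26 to 94.8 and 113 CPM, whereas Rgs5 stood at 10.1, 12.1 and 1.28 CPM, Cspg4 at 8.34, 0.237 and 40.6 CPM and Mcam at 18.3, 29.0 and 16.8 CPM.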
